A study of Mus musculus with 18 samples.

Results

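The albumin family and the main hormone and vitamin carriers of plasma were followed in mouse liver as 8 genes, all of which were chosen by symbol from the 54752 genes of the count table: Alb, Afp, Afm, Gc, Ttr, Rbp4, Serpina6 and Serpina7. The rule for membership is the gene symbol and sets no threshold on a measured value, but the genes were picked with earlier results of these data known. All 8 passed the filter on low counts that left 21914 genes for testing. RNA from livers of male C57BL/6 mice was measured in 3 groups of 6 libraries. The labels do not state that each library is from its own mouse, so p-values measure the spread between these samples. Cirrhosis-PTH mice received 10% carbon tetrachloride (CCl4, a solvent that hepatocytes turn into a toxic radical) in corn oil by intraperitoneal injection, and Pien Tze Huang (PTH, a traditional Chinese medicine, not parathyroid hormone) by mouth every day at 0.25 mg per g of body weight from a 50 mg/ml preparation. Cirrhosis mice received the same CCl4 injections with oral double distilled water, and Control mice received corn oil injections with oral double distilled water. All injections were of 10 µl/g and came at 2 per week over 12 weeks, in mice bought at 6 weeks of age. No group was given corn oil with PTH, so the medicine can be read here only on top of CCl4. The protocol describes 15 mice per group, and 6 libraries per group were used here.

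Most plasma proteins are made by hepatocytes. Albumin (Alb), alpha-fetoprotein (Afp), afamin (Afm) and the vitamin D-binding protein (Gc) descend from one ancestral gene and carry fatty acids, bilirubin, vitamin E, vitamin D and other lipophilic cargo. Alpha-fetoprotein is the fetal counterpart of albumin and is shut down in liver after birth. Transthyretin (Ttr) carries thyroxine and also holds the retinol-binding protein (Rbp4) in the circulation, while the serpins Serpina7 (thyroxine-binding globulin) and Serpina6 (corticosteroid-binding globulin) carry thyroxine and glucocorticoids. Albumin in serum is a standard clinical measure of the liver's synthetic function. RNA levels are what was measured here, not protein in plasma.

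On GRCm38, 4 of the genes lie on chromosome 5. Alb (ENSMUSG00000029368, 90460897 to 90476602, plus strand), Afp (ENSMUSG00000054932, 90490737 to 90508907, plus strand) and Afm (ENSMUSG00000029369, 90518932 to 90553543, plus strand) stand in tandem, with gaps of 14134 bp and 10024 bp between them. Gc (ENSMUSG00000035540, 89417522 to 89457898, minus strand) lies on the same chromosome, apart from the tandem. Rbp4 (ENSMUSG00000024990) is on chromosome 19 at 38116629 to 38125281. Serpina6 (ENSMUSG00000060807) is in the serpin cluster of chromosome 12 at 103646630 to 103657212, and Serpina7 (ENSMUSG00000031271) is on chromosome X at 139079257 to 139085236. An antisense gene, Gm43449, overlaps Afp and collected at most 28 counts in any library. Gm42109 overlaps Afm on the other strand and collected at most 109 counts. The counting is not stated to use strand, so reads of these pairs cannot be told apart, and both partners were far below Afm and below Afp.

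Promoter sequence is shown for the albumin family, whose members share a descent, and for Serpina7, the carrier that moved opposite to most of the others. Each run covers up to 250 bases before the RefSeq transcript start (GRCm38.p6), 5′ to 3′ on the gene's own strand, and stops before the annotated gene. Capitals mark TATAAA (the TATA box), GTTAAT (a motif of liver promoters) and TTATGTAA (the site of the PAR bZIP factors Dbp, Tef and Hlf) on either strand. The printed windows are chr5:90460620-90460869 for Alb, chr5:90490464-90490713 for Afp, chr5:90518699-90518931 for Afm, chr5:89457899-89458148 for Gc (minus strand) and chrX:139085237-139085486 for Serpina7 (minus strand).
Alb: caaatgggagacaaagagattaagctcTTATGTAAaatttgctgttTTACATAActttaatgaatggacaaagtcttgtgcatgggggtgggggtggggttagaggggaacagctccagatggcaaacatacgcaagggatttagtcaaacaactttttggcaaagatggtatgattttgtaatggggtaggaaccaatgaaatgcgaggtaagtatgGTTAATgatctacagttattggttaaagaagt
Afp: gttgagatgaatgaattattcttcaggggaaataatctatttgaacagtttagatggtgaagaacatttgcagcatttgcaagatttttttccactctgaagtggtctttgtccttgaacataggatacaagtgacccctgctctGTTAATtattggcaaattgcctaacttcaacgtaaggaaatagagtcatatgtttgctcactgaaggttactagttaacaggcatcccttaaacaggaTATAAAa
Afm: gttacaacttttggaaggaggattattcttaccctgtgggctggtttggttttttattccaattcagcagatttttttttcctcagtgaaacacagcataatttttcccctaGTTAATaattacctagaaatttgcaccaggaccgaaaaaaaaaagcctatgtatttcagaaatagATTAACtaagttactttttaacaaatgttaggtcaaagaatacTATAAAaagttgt
Gc: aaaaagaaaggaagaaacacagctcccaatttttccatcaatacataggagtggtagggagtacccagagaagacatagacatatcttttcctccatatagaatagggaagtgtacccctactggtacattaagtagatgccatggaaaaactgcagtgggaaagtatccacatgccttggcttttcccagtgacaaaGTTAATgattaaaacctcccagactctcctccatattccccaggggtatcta
Serpina7: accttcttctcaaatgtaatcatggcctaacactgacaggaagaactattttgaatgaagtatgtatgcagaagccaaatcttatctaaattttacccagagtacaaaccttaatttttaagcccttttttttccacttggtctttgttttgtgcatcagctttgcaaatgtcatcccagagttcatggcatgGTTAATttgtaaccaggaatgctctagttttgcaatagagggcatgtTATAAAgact

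RefSeq windows of 6 of the 8 genes were searched for short motifs on both strands: these 5 and Rbp4. GTTAAT was found in 5 of the 6, all but Rbp4, and in 6.43% of 32851 promoter windows of the same length. Afm held it in a pair of places, from 138 to 133 and from 73 to 68 bases before the start. In Alb it lay 32 to 27 bases before the start, in Gc 52 to 47, in Serpina7 57 to 52 and in Afp 105 to 100. These distances count from the RefSeq start, not from the gene coordinates given above. The RefSeq start lies before the annotated gene for Alb and Afp, and inside it for Afm. TTATGTAA was found in Alb, in a pair of places on opposite strands, and in 0.819% of all windows. TATAAA was found in Afp, Afm and Serpina7 (12.4% of all windows), CCAAT (the CCAAT box) in all but Serpina7 (33.8%) and TTGCNNAA (C/EBP factors) in Alb, Afp and Serpina7 (9.56%). TGTTTAC (FOXA factors) was found in Rbp4 (3.17%) and AGGTCA (nuclear receptors) in Afm (14%). CAAAGTCCA (HNF4A, 0.384%) was not found in these windows. Such matches describe letters and do not show binding.

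Libraries held 62.5 to 112.3 M counts. Loci that collect ribosomal RNA reads took 31.4 to 60.8% of them, most in Control replicates 7 and 8, which left 24.5 to 67.5 M counts elsewhere. Levels below are CPM (counts per M counts) of a library whose size was corrected by TMM factors (trimmed mean of M values), which set the typical gene equal between libraries. Log2 fold changes are given ± their standard error (SE), and every adjusted p is from the edgeR quasi-likelihood F-test with Benjamini-Hochberg adjustment over the 21914 genes tested, called under 0.05. The scaling matters for these genes. Dividing by library totals alone shifted the median of all tested genes to 0.73 in Cirrhosis against Control, -0.34 in Cirrhosis-PTH against Cirrhosis and 0.38 in Cirrhosis-PTH against Control. A setting with totals outside the ribosomal loci and no scaling factor, which was chosen after seeing the data, moved it to 0.50, -0.29 and 0.20. Under TMM it was 0.02, -0.00 and 0.01. Calls that were higher made up 50.5%, 51.9% and 71.9% of all calls under TMM in the 3 comparisons. That share was 92.1%, 18.1% and 97.7% with library totals alone and 84.5%, 22.6% and 94.7% with totals outside the ribosomal loci. Folds below are therefore relative to the typical gene, and 5 scalings were compared: TMM, RLE, upper quartile and these 2 settings.

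In Cirrhosis against Control, which asks what CCl4 did, 6 of the 8 carriers fell under TMM scaling (Alb, Afm, Gc, Ttr, Rbp4 and Serpina6), Serpina7 rose and Afp did not pass. Signs of Alb, Gc, Ttr and Rbp4 turn positive with library totals alone, and those of Alb and Gc also with totals outside the ribosomal loci. Among all tested genes 25.0% fell and 25.5% rose. The libraries of the 2 groups did not overlap for 5 of the 8, against 30.3% of all tested genes. The median log2 change over the 8 was -0.54, beside 0.02 over all genes, and the range ran from -2.03 for Serpina6 to 3.03 for Serpina7. In Cirrhosis-PTH against Cirrhosis, 5 of the 8 rose under TMM scaling (Afm, Gc, Ttr, Rbp4 and Serpina6), Serpina7 fell, and Alb and Afp did not pass. Gc turns to -0.02 with library totals alone. Among all tested genes 20.1% rose and 18.6% fell. Libraries did not overlap for 4 of the 8, against 22.8% of all genes, and the members' median change was 0.39, beside -0.00 over all genes. Both comparisons use the Cirrhosis libraries, so opposite signs in them are partly built in.

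**Figure D1:**
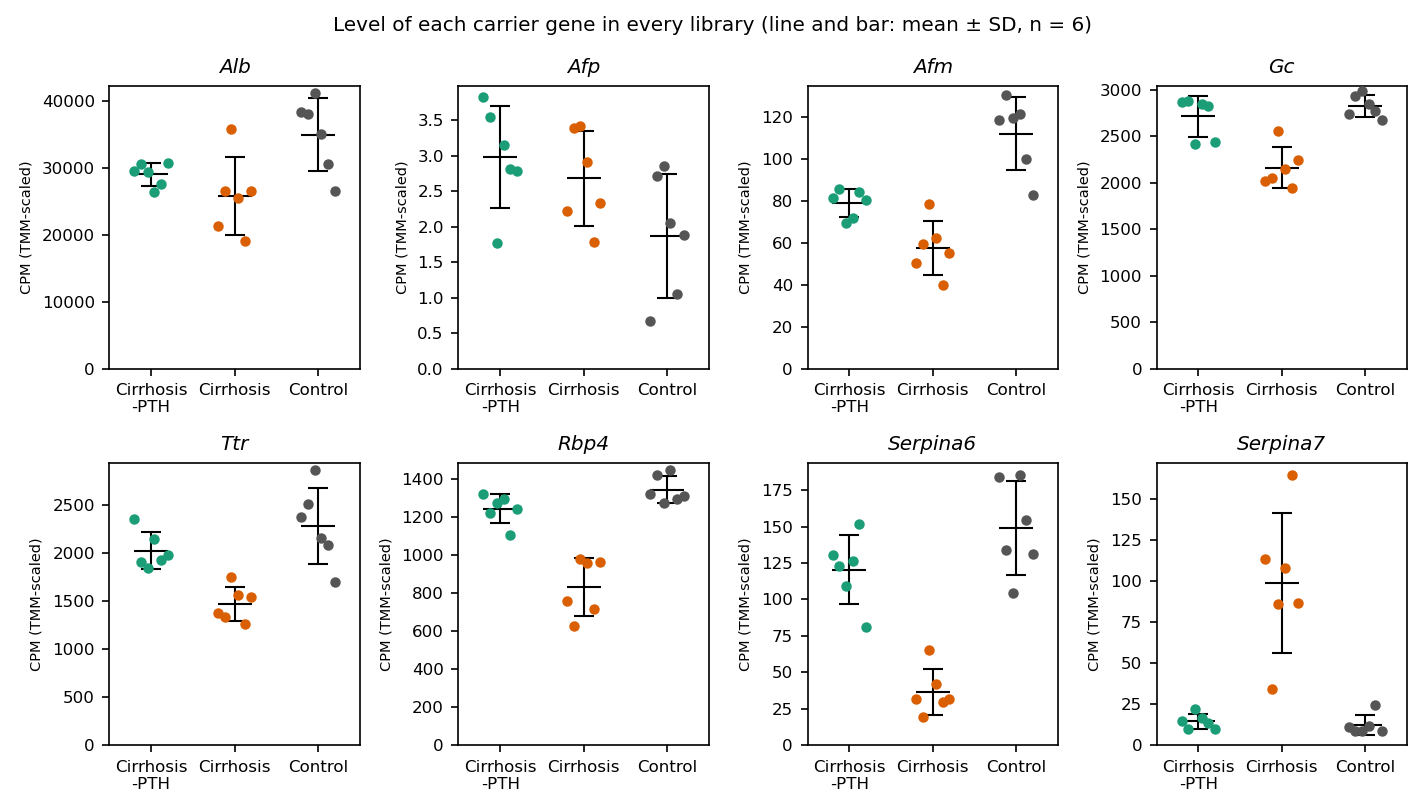
CPM (TMM-scaled, vertical axes from 0) of the 8 carrier genes in each library, with Cirrhosis-PTH, Cirrhosis and Control from left to right. Points are libraries, and the line with bars is the mean ± SD of 6. Serpina6 is low and Serpina7 high in all 6 Cirrhosis libraries, apart from both other groups.

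Alb had rank 5 by mean level among the tested genes and was the most abundant carrier. It ran from 26434 to 30833 CPM (median 29499) in Cirrhosis-PTH, from 19040 to 35902 CPM (median 26051) in Cirrhosis and from 26564 to 41198 CPM (median 36617) in Control. The groups overlap, since Cirrhosis replicate 3 lay inside the Control range and Control replicate 8, at 26564 CPM, was just below Cirrhosis replicate 6. The change in Cirrhosis against Control was -0.44 ± 0.14 (adjusted p = 0.013), and it missed the threshold (-0.41, adjusted p = 0.051) when only the 12 libraries of those groups were fitted. Its sign turned to 0.25 with library totals alone and to 0.04 with totals outside the ribosomal loci. Relative to the median gene, Alb stood between -0.48 and -0.45 under all 5 scalings. A scaling shifts all genes of a library alike, so this agreement is nearly fixed by construction and is no separate support. Cirrhosis-PTH against Cirrhosis gave 0.17 ± 0.14 (adjusted p = 0.37), with an interval from -0.10 to 0.45, and the sign turned to -0.16 and -0.11 under those same 2 scalings. As a share of the counts outside ribosomal loci, Alb took 5.0 ± 0.43% in Cirrhosis-PTH, 5.4 ± 1.08% in Cirrhosis and 5.24 ± 0.92% in Control (SD, n = 6 each). Groups overlap in that share, and the 8 carriers together took 6.06%, 6.37% and 6.25% in Cirrhosis-PTH, Cirrhosis and Control.

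Afp was barely transcribed in any group. It had 1.76 to 3.82 CPM (median 2.98) in Cirrhosis-PTH, 1.78 to 3.42 CPM (median 2.62) in Cirrhosis and 0.670 to 2.85 CPM (median 1.963) in Control, from 47 to 437 counts per library. Per kb of exon, Alb was 14055 times higher than Afp in Cirrhosis-PTH, 13878 times in Cirrhosis and 26906 times in Control. The 3 groups overlap in CPM. The change was 0.51 ± 0.28 (adjusted p = 0.13) in Cirrhosis against Control and 0.15 ± 0.27 (adjusted p = 0.71) in Cirrhosis-PTH against Cirrhosis. Cirrhosis against Control passed with totals outside the ribosomal loci (1.02, adjusted p = 0.0022) and with library totals alone (1.24, adjusted p = 0.00027), where the second comparison turned to -0.14 and -0.21. The ratio to Alb within each library needs no scaling, but it also moves with Alb. There Afp made 0.00598 to 0.0130% of the Alb count in Cirrhosis-PTH, 0.00879 to 0.0128% in Cirrhosis and 0.00174 to 0.00712% in Control, so all 6 Cirrhosis libraries lay above all 6 Control libraries.

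Afm, which carries vitamin E and is the neighbour of Afp, had 69.5 to 85.8 CPM (median 81.0) in Cirrhosis-PTH, 39.8 to 78.7 CPM (median 57.4) in Cirrhosis and 82.9 to 130 CPM (median 119) in Control. Every Cirrhosis library lay below every Control library, and Cirrhosis-PTH libraries overlapped both groups. Afm fell by 0.96 ± 0.13 in Cirrhosis against Control (adjusted p = 2.5e-06) and rose by 0.45 ± 0.13 in Cirrhosis-PTH against Cirrhosis (adjusted p = 0.0073). The direction held in all scalings, and the calls were lost with library totals alone (-0.27, adjusted p = 0.15, and 0.11, adjusted p = 0.64); the second was also lost with totals outside the ribosomal loci (0.16, adjusted p = 0.30). Afm made 0.236 to 0.305% of the Alb count in Cirrhosis-PTH, 0.208 to 0.244% in Cirrhosis and 0.290 to 0.347% in Control. On that scale, too, Cirrhosis and Control did not overlap. Within the tandem of Alb, Afp and Afm, relative to the Alb count, Afm was lower and Afp higher in all 6 Cirrhosis libraries than in any Control library.

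Gc, the vitamin D-binding protein and a scavenger of actin, had 2417 to 2877 CPM (median 2832) in Cirrhosis-PTH, 1943 to 2550 CPM (median 2097) in Cirrhosis and 2668 to 2985 CPM (median 2804) in Control. All Cirrhosis libraries were below all Control libraries under TMM scaling. Gc changed by -0.39 ± 0.08 in Cirrhosis against Control (adjusted p = 0.00065) and by 0.33 ± 0.08 in Cirrhosis-PTH against Cirrhosis (adjusted p = 0.0036). With library totals alone the first turned to 0.33 (adjusted p = 0.027) and the second to -0.02; with totals outside the ribosomal loci they were 0.10 and 0.04. Relative to the median gene, Gc lay between -0.41 and -0.40 and between 0.32 and 0.33 in all 5 scalings, which is nearly built in, as for Alb. As a share of the Alb count, Gc held 9.36 ± 1.12% in Cirrhosis-PTH, 8.55 ± 1.12% in Cirrhosis and 8.21 ± 1.14% in Control, with overlapping libraries. The neighbours of Gc, Slc4a4 and Npffr2, lie 177868 bp and 69530 bp away.

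Ttr and Rbp4, the partners that carry retinol together, both fell in Cirrhosis against Control and rose in Cirrhosis-PTH against Cirrhosis under TMM scaling. Ttr (ENSMUSG00000061808) is on chromosome 18 at 20665280 to 20674321 (plus strand). Ttr had 1841 to 2359 CPM (median 1953) in Cirrhosis-PTH, 1265 to 1750 CPM (median 1458) in Cirrhosis and 1699 to 2865 CPM (median 2266) in Control. Only Control replicate 8 reached down into the Cirrhosis range, and all Cirrhosis-PTH libraries lay above all Cirrhosis libraries. The change was -0.63 ± 0.11 in Cirrhosis against Control (adjusted p = 8.7e-05) and 0.46 ± 0.11 in Cirrhosis-PTH against Cirrhosis (adjusted p = 0.0026). Library totals alone gave 0.07 and 0.11, and totals outside the ribosomal loci -0.15 and 0.17, none of them past the threshold. Rbp4 had 1107 to 1320 CPM (median 1260) in Cirrhosis-PTH, 626 to 981 CPM (median 858) in Cirrhosis and 1273 to 1447 CPM (median 1318) in Control. All Cirrhosis libraries lay below both other groups. Rbp4 changed by -0.69 ± 0.10 in Cirrhosis against Control (adjusted p = 8.5e-06) and by 0.58 ± 0.10 in Cirrhosis-PTH against Cirrhosis (adjusted p = 0.00011). Library totals alone gave 0.02 and 0.24 (adjusted p = 0.90 and 0.22), and totals outside the ribosomal loci gave -0.20 for the first (adjusted p = 0.094).

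Ratios to Alb were set beside these levels. Rbp4 made 3.98 to 4.90% of the Alb count in Cirrhosis-PTH, 2.36 to 3.76% in Cirrhosis and 3.09 to 4.95% in Control, so every Cirrhosis-PTH library lay above every Cirrhosis library. Ttr made 6.22 to 8.11% in Cirrhosis-PTH, 4.87 to 6.64% in Cirrhosis and 6.16 to 6.95% in Control, with overlap in each comparison. Relative to the median gene, Ttr lay between -0.67 and -0.65 and Rbp4 between -0.71 and -0.70 in Cirrhosis against Control over the 5 scalings. Such agreement is nearly built in, as for Alb.

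Serpina6, the corticosteroid-binding globulin, had the largest fall of the 8. It ran from 81.3 to 152 CPM (median 124) in Cirrhosis-PTH, from 19.3 to 65.1 CPM (median 31.5) in Cirrhosis and from 104 to 186 CPM (median 144) in Control. Every Cirrhosis library was below every library of both other groups. It fell by 2.03 ± 0.24 in Cirrhosis against Control (a fold of 0.245, adjusted p = 1.6e-06) and rose by 1.72 ± 0.24 in Cirrhosis-PTH against Cirrhosis (3.30-fold, adjusted p = 1.6e-05). Both calls and directions held in all 15 alternative settings, from -2.18 to -1.34 in the first comparison and from 1.36 to 1.80 in the second. Serpina6 made 0.264 to 0.549% of the Alb count in Cirrhosis-PTH, 0.0729 to 0.181% in Cirrhosis and 0.253 to 0.530% in Control, again with no overlap of Cirrhosis with either group.

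Serpina7, the thyroxine-binding globulin, had the opposite pattern. It ran from 9.93 to 22.2 CPM (median 14) in Cirrhosis-PTH, from 34.3 to 164 CPM (median 96.9) in Cirrhosis and from 8.33 to 24.7 CPM (median 9.70) in Control. The lowest Cirrhosis library, replicate 2, was still above every library of both other groups. It rose by 3.03 ± 0.37 in Cirrhosis against Control (8.15-fold, adjusted p = 3.6e-06) and fell by 2.77 ± 0.36 in Cirrhosis-PTH against Cirrhosis (a fold of 0.146, adjusted p = 1.3e-05). Over the 15 alternative settings the first change ran from 3.0 to 3.77 and the second from -3.13 to -2.68, all past the threshold. Serpina7 made 0.0323 to 0.0752% of the Alb count in Cirrhosis-PTH, 0.129 to 0.863% in Cirrhosis and 0.0211 to 0.0807% in Control. Variation within groups was wide, with a coefficient of variation in CPM of 31.8% in Cirrhosis-PTH, 43.1% in Cirrhosis and 52.0% in Control. Within Cirrhosis, Serpina6 also had 43.1%, beside 10.2% for Gc.

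The order of the paired serpins differed in Cirrhosis. Per kb of exon, Serpina7 stood at 0.0581 to 0.146 times Serpina6 in Cirrhosis-PTH (median 0.0844), at 0.953 to 3.99 times in Cirrhosis (median 1.90) and at 0.0419 to 0.115 times in Control (median 0.0462). No scaling between libraries enters this ratio, and Cirrhosis did not overlap with either group. Serpina6 was above Serpina7 in all 6 libraries of Cirrhosis-PTH and of Control, and Serpina7 was above Serpina6 in 5 of the 6 Cirrhosis libraries.

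**Figure D2:**
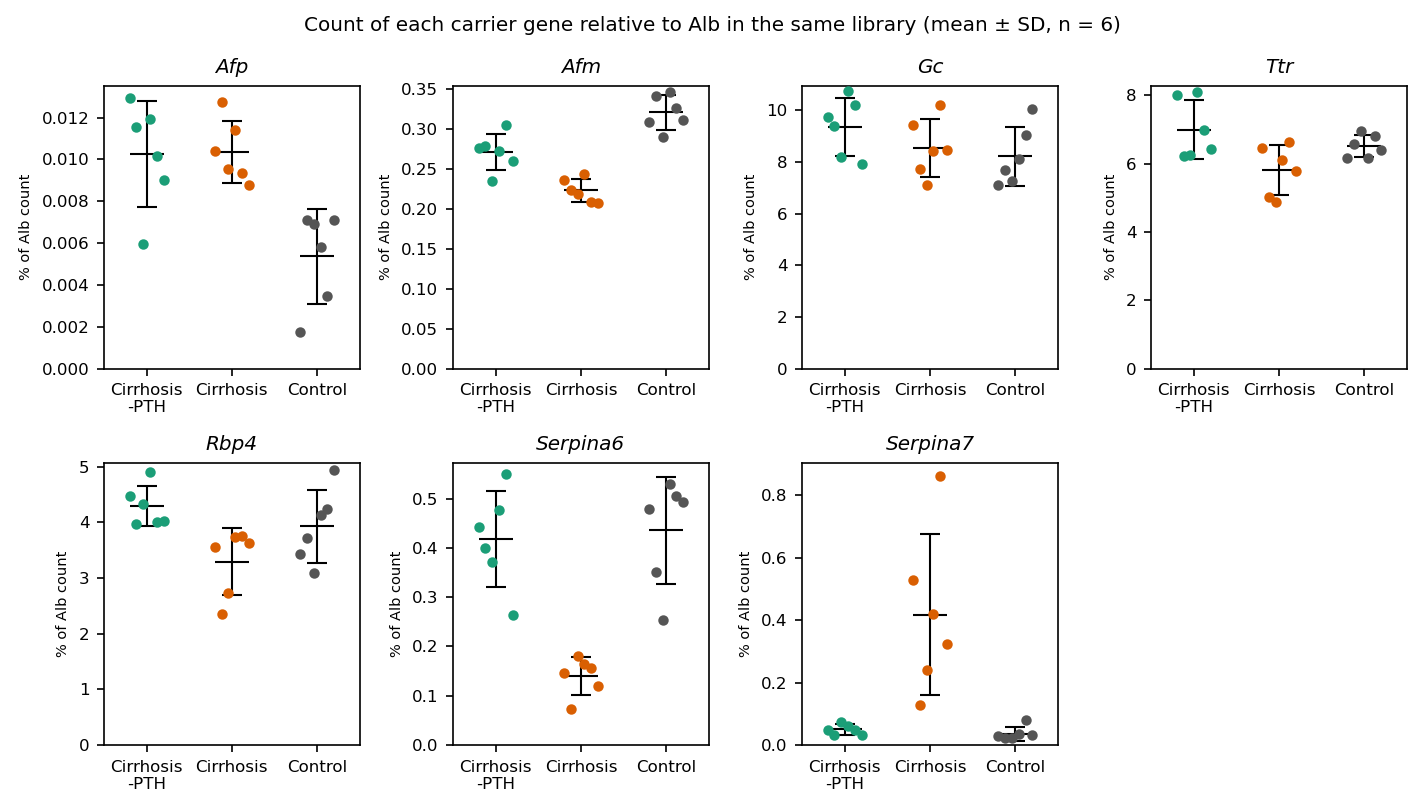
Counts of the 7 other carriers as a percentage of the Alb count in the same library (vertical axes from 0), with Cirrhosis-PTH, Cirrhosis and Control from left to right; points are libraries and the line with bars is the mean ± SD of 6. In this ratio Cirrhosis does not overlap with Control for Afp and Serpina7 (higher) or for Afm and Serpina6 (lower). The share of all genes with no overlap in this ratio was not computed. Alb itself was lower in Cirrhosis under TMM scaling, and Afp overlaps in CPM.

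In order of level per kb of exon, Alb was followed by Ttr, Gc and Rbp4 in all 3 groups. Alb had 12424 ± 743 CPM per kb in Cirrhosis-PTH, 11030 ± 2479 in Cirrhosis and 14946 ± 2348 in Control. Ttr had 1709 ± 162, 1241 ± 151 and 1924 ± 337 CPM per kb in Cirrhosis-PTH, Cirrhosis and Control, and the ranges of Ttr and Gc overlapped in each group. Below them came Serpina6, Afm, Serpina7 and Afp in Cirrhosis-PTH and Control, with no overlap between neighbours in that order. In Cirrhosis the order was Serpina7, Serpina6, Afm and Afp, and the first 3 overlapped. Afp was last in every group, at 0.884 ± 0.214, 0.795 ± 0.198 and 0.555 ± 0.260 CPM per kb in Cirrhosis-PTH, Cirrhosis and Control (SD, n = 6 each).

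Cirrhosis-PTH against Control asks how far the treated injured livers stood from livers without CCl4. Afm alone passed, lower by a log2 change of -0.51 ± 0.13 (adjusted p = 0.015), with overlapping libraries, and the call was lost with library totals alone (-0.16) and with totals outside the ribosomal loci (-0.31, adjusted p = 0.079). Among all tested genes 2.48% fell and 6.34% rose, and the libraries of the groups did not overlap for 4.47% of genes and for 0 of the 8 carriers. Afp had 0.67 ± 0.28 (adjusted p = 0.15) and passed with library totals alone (1.03) and with totals outside the ribosomal loci (0.87). The members' median was -0.14, beside 0.01 over all genes. A missed threshold does not show equal levels: the intervals ran from -0.54 to 0.01 for Alb, from -0.22 to 0.11 for Gc, from -0.39 to 0.05 for Ttr and from -0.31 to 0.09 for Rbp4. For Serpina6 the interval ran from -0.76 to 0.14 and for Serpina7 from -0.42 to 0.93.

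**Figure D3:**
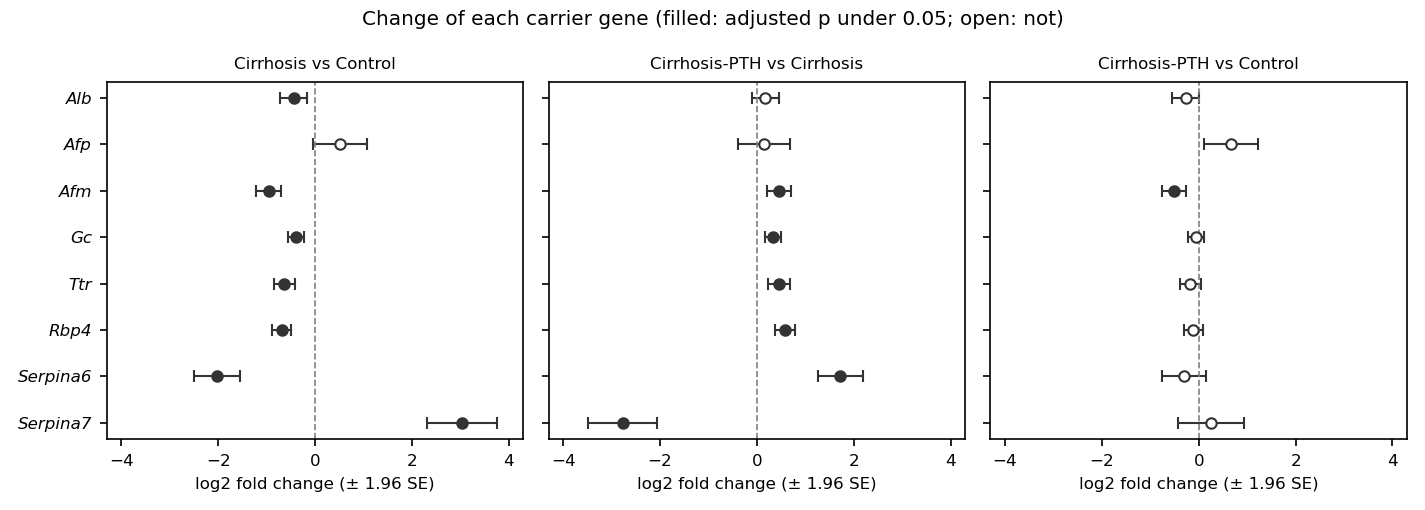
Log2 fold changes (horizontal axes, TMM scaling) of the 8 carriers in Cirrhosis against Control, Cirrhosis-PTH against Cirrhosis and Cirrhosis-PTH against Control, with bars of 95% intervals. Filled points passed an adjusted p of 0.05: 7 in the first panel, 6 in the second and Afm alone in the third. Signs of Alb, Gc, Ttr and Rbp4 in the first panel depend on the scaling.

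**Figure D4:**
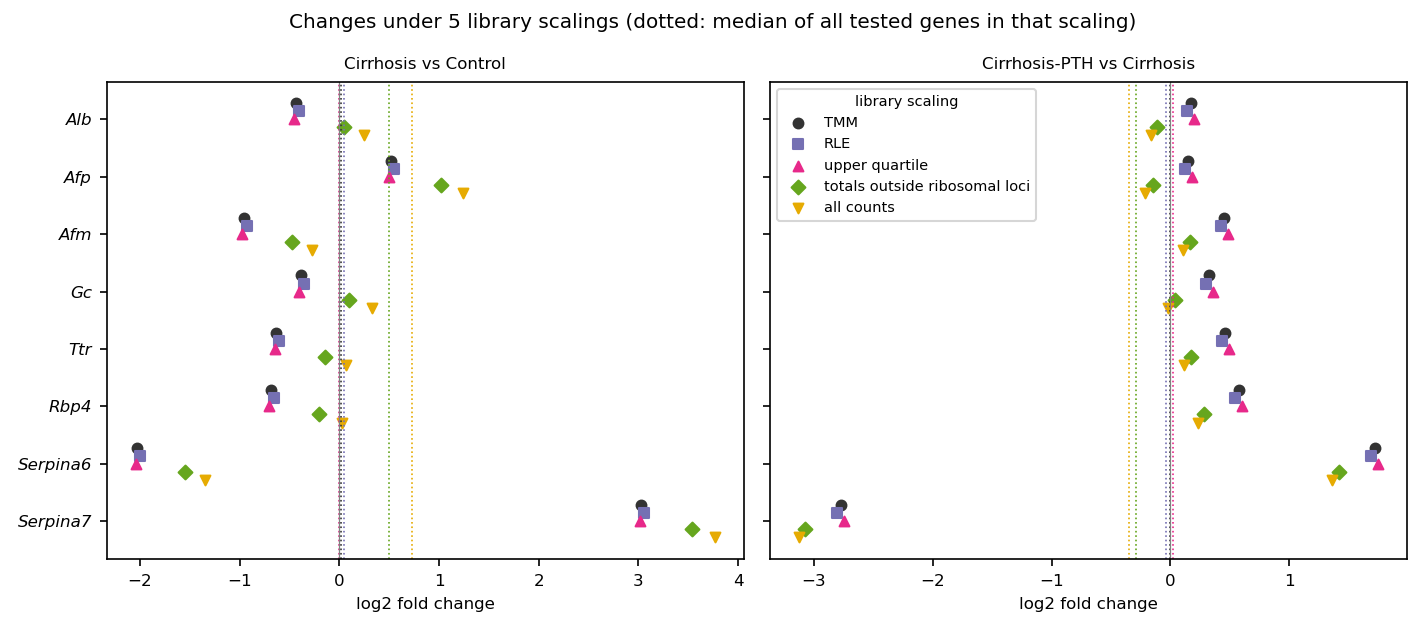
Log2 fold changes of the 8 carriers (horizontal axes) under 5 library scalings in Cirrhosis against Control (left) and Cirrhosis-PTH against Cirrhosis (right), with dotted lines at the median of all tested genes in each scaling. A scaling shifts all genes of a library alike, so by construction the points of a gene move together with the dotted lines. Alb, Gc, Ttr and Rbp4 cross 0 in the left panel with library totals alone.

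In bulk tissue, fewer cells of a type and less RNA per cell cannot be told apart. The summed level of 8 hepatocyte markers was 19742 to 24434 CPM in Cirrhosis-PTH, 14154 to 18101 CPM in Cirrhosis and 22262 to 24580 CPM in Control, with none of the 8 at 0. Under TMM scaling 6 of them fell in Cirrhosis against Control and 6 rose in Cirrhosis-PTH against Cirrhosis. Cholangiocyte and progenitor markers summed to 28.6 to 86.4 CPM, 89.5 to 212 CPM and 19.8 to 43.8 CPM in Cirrhosis-PTH, Cirrhosis and Control, and 7 of 8 rose in Cirrhosis against Control. Stellate markers summed to 227 to 418, 454 to 597 and 197 to 254 CPM, and macrophage markers to 166 to 202, 254 to 376 and 131 to 202 CPM, in the same order of groups. In Cirrhosis against Control 6 of 8 in each list were higher and 1 was lower, Hhip (-3.33 ± 0.32) and Clec4f (-0.69 ± 0.17). Under TMM scaling 3 cholangiocyte, 7 stellate and 5 macrophage markers fell in Cirrhosis-PTH against Cirrhosis. The other 5 cholangiocyte markers did not pass there. Among them were Krt19 (-0.04 ± 0.39, adjusted p = 0.96) and Krt7 (-0.25 ± 0.37, adjusted p = 0.65). Endothelial markers overlapped, at 266 to 287, 251 to 308 and 257 to 289 CPM. Lymphocyte markers stood at 12.1 to 19.2, 15.5 to 54.6 and 7.12 to 47.0 CPM. Pancreas markers stayed at or under 9.11 CPM in every library, where 3 to 6 of the 8 were at 0 in all libraries of a group. Of 8 adipocyte markers only 3 passed the filter on low counts, and 2 or 3 were at 0 throughout a group, while the sum was 2930 to 3672 CPM in Cirrhosis-PTH, 810 to 1876 CPM in Cirrhosis and 2488 to 3465 CPM in Control. Nearly all of that sum was Car3 and Pck1, which hepatocytes also express abundantly: Pck1 averaged 2349, 1113 and 1781 CPM and Car3 841, 195 and 1289 CPM in Cirrhosis-PTH, Cirrhosis and Control. The third, Cidec, went the other way (1.84 in Cirrhosis against Control and -2.0 in Cirrhosis-PTH against Cirrhosis), and the adipocyte-defining Adipoq and Lep were at or near 0. Under TMM scaling the hepatocyte, cholangiocyte, stellate and macrophage sums differed between Cirrhosis and Control with no overlap, as did levels of several carriers. These sums were not computed in the 2 settings without a scaling factor, where signs of some carriers turned. Their part in the carriers' changes was not tested.

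Other plasma binding and transport proteins made by the liver fell more often than they rose in Cirrhosis against Control: of 25 tested under TMM scaling, 14 fell, 1 rose and 10 did not pass, with a median of -0.44. In Cirrhosis-PTH against Cirrhosis 13 rose, 2 fell and 10 did not pass, with a median of 0.30. Those counts became 1 lower and 10 higher in the first comparison, and 5 higher and 5 lower in the second, with library totals alone. Under TMM scaling 25.5% of all tested genes rose and 25.0% fell in the first comparison. In the second 20.1% rose and 18.6% fell. The single riser, Igfbp1, an insulin-like growth factor (IGF) binding protein that fasting and stress induce, had 11.7 ± 4.88 CPM for Cirrhosis-PTH, 234 ± 49.0 CPM for Cirrhosis and 10.2 ± 5.44 CPM for Control (SD, n = 6 each), the same order of groups as Serpina7. It changed by 4.53 ± 0.36 (adjusted p = 2.5e-08) and -4.31 ± 0.35 (adjusted p = 9.2e-08). Igfals, which holds IGF in a long-lived plasma complex, fell by 1.60 ± 0.15 in Cirrhosis against Control and rose by 1.36 ± 0.15 in Cirrhosis-PTH against Cirrhosis. Igfbp4 changed by -0.88 ± 0.09 and 0.88 ± 0.09 in those comparisons, the first of which did not pass with library totals alone (-0.16). The count of risers rested on few libraries, being 3 without Control replicate 8, 5 without Control replicates 7 and 8 together, 2 without Cirrhosis replicate 3, 3 with the replicate block and 6 with totals outside the ribosomal loci.

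Genes that take up, activate and answer to thyroid hormone, the cargo of Ttr and Serpina7, were mostly lower in Cirrhosis than in Control. Of 15 tested, 12 fell, 1 rose and 2 did not pass, with a median of -0.90. In Cirrhosis-PTH against Cirrhosis 12 rose, none fell under TMM scaling and 3 did not pass, with a median of 0.79; without a filter on low counts 1 fell. Scaling by library totals alone left 4 lower and 3 higher in the first comparison and 8 higher in the second. Slco1a1, an organic anion transporter, had 72.7 ± 13.9 CPM in Cirrhosis-PTH, 11 ± 4.13 CPM in Cirrhosis and 241 ± 66.8 CPM in Control. It fell by 4.46 ± 0.29 (adjusted p = 2.1e-09) and rose by 2.73 ± 0.27 (adjusted p = 5.0e-07), and it was still below Control in Cirrhosis-PTH (-1.73 ± 0.26, adjusted p = 0.00046). Slco1b2, a liver uptake transporter, changed by -1.55 ± 0.15 and 1.12 ± 0.14. Klf9, a thyroid hormone target, changed by -0.96 ± 0.10 and 0.93 ± 0.10, and with library totals alone it kept its sign but not the first call. Outside the naming rule and chosen after their values were seen, Dio1, which converts thyroxine to the active hormone, changed by -2.42 ± 0.36 and 1.68 ± 0.35, and the receptor Thrb by -1.01 ± 0.10 and 0.79 ± 0.10, the first not past the threshold with library totals alone (-0.30). The riser of the list was Hr, also named after its values were seen. Its means were low, at 0.869, 1.10 and 0.282 CPM in Cirrhosis-PTH, Cirrhosis and Control. Hr changed by 1.95 ± 0.47 in Cirrhosis against Control (adjusted p = 0.0017). Cirrhosis-PTH against Cirrhosis gave -0.34 ± 0.44 for it (adjusted p = 0.59).

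Retinoid genes, which handle the cargo of Rbp4, moved in both directions. Of 23 tested, 7 rose and 7 fell in Cirrhosis against Control (median -0.10), and 7 rose and 5 fell in Cirrhosis-PTH against Cirrhosis (median 0.16), where the fallers were 3 without Cirrhosis-PTH replicate 4. Of all tested genes 25.5% rose and 25.0% fell in the first comparison, and 20.1% rose and 18.6% fell in the second. The counts of this list are not far from those shares. With library totals alone the first comparison had 14 higher and 2 lower, and with totals outside the ribosomal loci 11 higher and 4 lower, where the second had 8 lower. Rdh7, a retinol dehydrogenase with close paralogs, had 415 ± 33.4 CPM in Cirrhosis-PTH, 174 ± 19.3 CPM in Cirrhosis and 459 ± 38.9 CPM in Control, with a change of -1.39 ± 0.09 (adjusted p = 9.3e-11) and of 1.25 ± 0.09 (adjusted p = 1.5e-09). The retinoid X receptor Rxra changed by -0.85 ± 0.07 and 0.86 ± 0.07, the first of which did not pass with library totals alone (-0.14). Cyp26a1, the enzyme that degrades retinoic acid and a target of it, stood apart and was chosen after its values were seen. It had 17.5 to 41.4 CPM in Cirrhosis-PTH, 1.06 to 4.09 CPM in Cirrhosis and 2.27 to 5.71 CPM in Control. It rose by 3.38 ± 0.34 in Cirrhosis-PTH against Cirrhosis (adjusted p = 6.2e-07) and by 2.97 ± 0.34 against Control (adjusted p = 4.6e-05), while Cirrhosis against Control gave -0.41 ± 0.32 (adjusted p = 0.31), with the sign turning to 0.28 and 0.08 in the settings without a scaling factor.

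Of 8 tested genes of vitamin D handling, the cargo of Gc, 4 fell and 2 rose in Cirrhosis against Control (median -0.46), and 5 rose and 2 fell in Cirrhosis-PTH against Cirrhosis (median 0.79). The risers of the first comparison came to 1 without any of Control replicates 1, 3 and 6 or Cirrhosis replicates 4 and 5, and the fallers to 1 with library totals alone. Of all tested genes 25.5% rose and 25.0% fell in the first comparison, and 20.1% rose and 18.6% fell in the second. Cyp27a1, a sterol and vitamin D hydroxylase, had 177 ± 25.2 CPM in Cirrhosis-PTH, 71.7 ± 11.9 CPM in Cirrhosis and 205 ± 27.3 CPM in Control, with a change of -1.52 ± 0.12 and of 1.31 ± 0.12 (adjusted p = 1.6e-09 and 3.1e-08).

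Among 17 glucocorticoid genes, the cargo pathway of Serpina6, 6 rose and 7 fell in Cirrhosis against Control (median -0.23), and 6 rose and 3 fell in Cirrhosis-PTH against Cirrhosis (median 0.25); the last count was 5 without Control replicate 8 and in 7 of the 15 alternative settings, among them both without a scaling factor, the replicate block and limma-voom. In the first comparison library totals alone gave 10 higher and 3 lower. Under TMM scaling 25.5% of all tested genes rose and 25.0% fell in the first comparison. In the second 20.1% rose and 18.6% fell. Srd5a1, a steroid reductase, had 27.5 ± 4.79 CPM in Cirrhosis-PTH, 7.83 ± 1.10 CPM in Cirrhosis and 36.4 ± 5.09 CPM in Control, with a change of -2.22 ± 0.12 and of 1.81 ± 0.12. Hsd11b1, which regenerates active glucocorticoid, changed by -1.06 ± 0.10 (adjusted p = 3.6e-08) and 0.88 ± 0.10 (adjusted p = 8.9e-07).

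**Figure D5:**
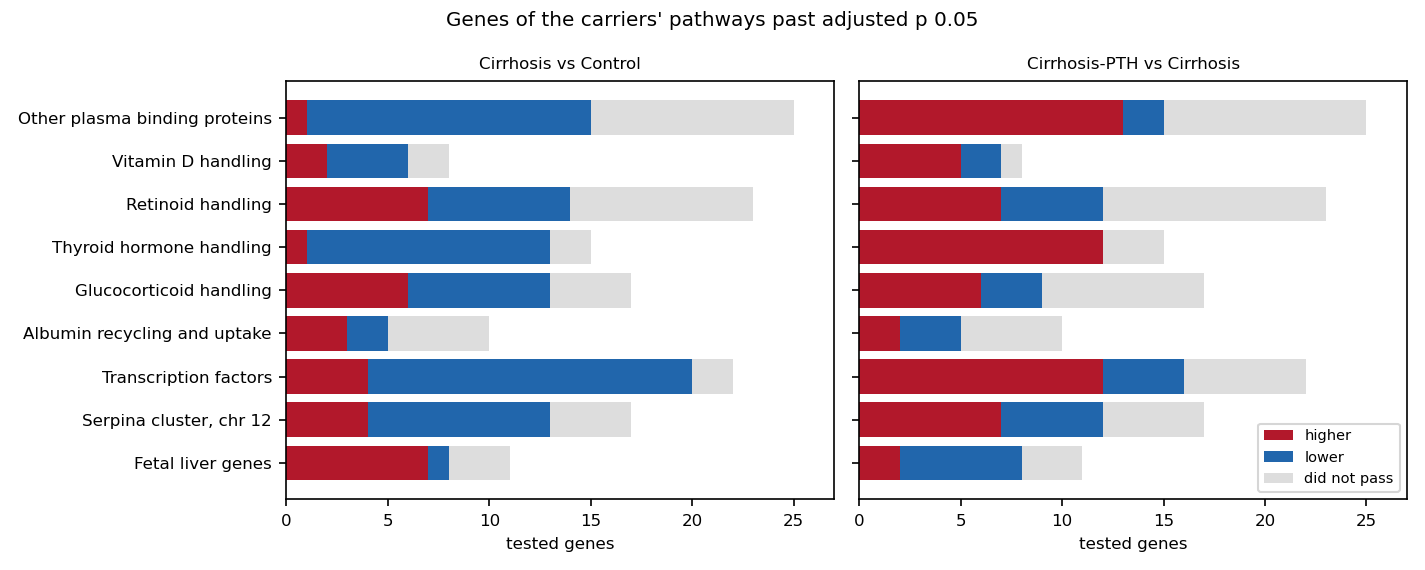
Number of tested genes (horizontal axes) of 9 lists around the carriers that were higher, lower or did not pass at an adjusted p of 0.05 under TMM scaling, in Cirrhosis against Control (left) and Cirrhosis-PTH against Cirrhosis (right). Of the 15 thyroid hormone genes 12 were lower on the left and 12 higher on the right; with library totals alone these counts were 4 and 8. Among all tested genes 25.5% were higher and 25.0% lower on the left, and 20.1% and 18.6% on the right.

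Transcription factors known to act on albumin family and carrier genes were mostly lower in Cirrhosis than in Control. Of 22 tested, 16 fell, 4 rose and 2 did not pass (median -0.54), and in Cirrhosis-PTH against Cirrhosis 12 rose, 4 fell and 6 did not pass (median 0.42). Under library totals alone 5 were lower and 8 higher in the first comparison, and 5 higher and 7 lower in the second. Cebpa, a hepatocyte factor of the albumin promoter, had 145 ± 20.1 CPM in Cirrhosis-PTH, 66.8 ± 10.6 CPM in Cirrhosis and 165 ± 22.0 CPM in Control, with a change of -1.31 ± 0.12 and of 1.12 ± 0.12. Tef, a PAR bZIP factor, changed by -1.15 ± 0.11 and 1.23 ± 0.11. Zbtb20, a repressor of Afp in mice that was chosen after its values were seen, had 402 ± 48.6 CPM in Cirrhosis-PTH, 295 ± 22.2 CPM in Cirrhosis and 471 ± 40.3 CPM in Control. Its change was -0.67 ± 0.09 (adjusted p = 1.2e-06) and 0.45 ± 0.09 (adjusted p = 0.00024), and the first turned to 0.05 with library totals alone, where neither passed. Zhx2, of the same list and also outside the naming rule, did not share that rise. It changed by -0.24 ± 0.09 (adjusted p = 0.025) and by -0.0046 ± 0.087 (adjusted p = 0.98).

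Genes of a list drawn up as fetal in liver, many of them under Zhx2 or Zbtb20 control like Afp, were mostly higher in Cirrhosis than in Control: 7 of 11 tested rose and 1 fell (median 2.14). In Cirrhosis-PTH against Cirrhosis 6 fell and 2 rose (median -1.15). In Cirrhosis-PTH against Control 6 of the 11 were still higher and 1 lower (median 1.27), among them Lpl (1.53 ± 0.16) and Ly6d (2.2 ± 0.47), beside 6.34% of all genes higher. Cd24a is also among the cholangiocyte markers. Lpl, lipoprotein lipase, had 52.5 ± 12.3 CPM in Cirrhosis-PTH, 127 ± 13.4 CPM in Cirrhosis and 18.2 ± 4.11 CPM in Control, with a change of 2.81 ± 0.17 and of -1.28 ± 0.16. Ly6d, a small surface protein, had 1.25 ± 0.244 CPM in Cirrhosis-PTH, 31.7 ± 11.9 CPM in Cirrhosis and 0.296 ± 0.256 CPM in Control, where the lowest library had no count, with a change of 6.87 ± 0.48 and of -4.66 ± 0.40. Elovl3 was the faller, at 12.7 ± 3.61 CPM in Cirrhosis-PTH, 0.760 ± 0.220 CPM in Cirrhosis and 42.1 ± 8.90 CPM in Control (-5.79 ± 0.25 and 4.06 ± 0.23). This fatty acid elongase is abundant in adult male liver, so the name of the list does not describe it.

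Of 10 genes for albumin recycling and uptake, 3 rose and 2 fell in Cirrhosis against Control (median -0.12), and 2 rose and 3 fell in Cirrhosis-PTH against Cirrhosis (median -0.09). Of all tested genes 25.5% rose and 25.0% fell in the first comparison, and 20.1% rose and 18.6% fell in the second. For a list of 10, these counts stand near those shares. The 2 fallers of the first comparison came to 0 with library totals alone and to 1 with totals outside the ribosomal loci, with the replicate block or without Control replicates 7 and 8, and the 2 risers of the second to 1 with library totals alone. Sparc, a matrix protein that binds albumin, changed by 1.91 ± 0.14 and -1.22 ± 0.14, and the endocytic adaptor Dab2 by 1.05 ± 0.08 and -0.70 ± 0.08. Fcgrt, the receptor that rescues albumin from breakdown, was chosen after its values were seen and changed by -0.68 ± 0.07 and 0.55 ± 0.07, the first turning to 0.04 with library totals alone, where neither passed.

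Serpina6 has relatives around it on chromosome 12. Of the 17 tested serpins of that cluster, 9 fell and 4 rose in Cirrhosis against Control under TMM scaling (median -0.83), and 7 were higher in both settings without a scaling factor. In Cirrhosis-PTH against Cirrhosis 7 rose and 5 fell (median 0.60), the fallers coming to 2 without Cirrhosis replicate 6 or Cirrhosis-PTH replicate 1 and to 3 with upper-quartile scaling or without Cirrhosis replicate 2 or 5 or Cirrhosis-PTH replicate 3. Serpina1d and Serpina1c, copies of alpha-1 antitrypsin, changed by -1.44 ± 0.11 and -1.19 ± 0.10, and then by 1.16 ± 0.11 and 0.96 ± 0.10. Serpina1 copies are near identical, so reads may have been split among them and their single values are uncertain. Serpina10, which lies 15185 bp from Serpina6, did not share its fall (0.17 ± 0.11, adjusted p = 0.23). The neighbour on the other side, Serpina16, had at most 2 counts. Beside Afm, 5830473C10Rik, 7563 bp away, had 31.4 ± 3.52 CPM in Cirrhosis-PTH, 11.7 ± 3.58 CPM in Cirrhosis and 35.7 ± 6.99 CPM in Control, with a change of -1.61 ± 0.18 and of 1.42 ± 0.18. Beside Ttr, B4galt6, 10277 bp away, rose by 2.1 ± 0.11 in Cirrhosis against Control and fell by 1.5 ± 0.11 in Cirrhosis-PTH against Cirrhosis, opposite to Ttr, while Dsg2, 60758 bp away, changed by -0.52 ± 0.07 and 0.39 ± 0.07. Serpina7 has Nrk, with no count, and 4930513O06Rik, with at most 16 counts, as neighbours.

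The tested genes whose pattern over the 18 libraries was most like each carrier were found by the root mean square difference of centred log2 CPM among 10695 candidates. For Serpina7, whose own spread around its mean was 1.46, they were Smox (0.44), Srxn1 (0.48) and Abcc4 (0.49), and for Serpina6, with a spread of 1.0, Ces1d (0.30), Dhdh (0.33) and Gstt2 (0.33). Rbp4 (spread 0.35) was matched by Kif1b (0.10), Coasy (0.11) and Paics (0.12), Ttr (0.32) by Ggcx, Sdhc and Prpf8 (0.12 each), and Gc (0.20) by Cnot1 and Dlg1 (0.08 each). Alb (0.28) was matched by Fbxw4 (0.13), Rrnad1 (0.14) and Entpd4b (0.15), and Afm (0.46) by C1rl (0.17), Shmt2 (0.18) and Sdc2 (0.18). Afp (0.62) had no close match, with Cdh13 and Slc39a4 at 0.44 and Sh2d4a at 0.45.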

How the data were processed

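The authors depleted liver RNA of ribosomal RNA, per the labels' protocols, and deposited whole-number read counts per gene for 18 libraries. Per the submitters' processing notes, the build was GRCm38 and the tools, with no roles given, included Trim Galore, cutadapt 4.2, HISAT2 2.2.1, Bowtie2, Bowtie 1.3.1 and StringTie 2.1.5. The strandedness of counting and any filter are not given in the sources used here. Libraries were grouped by their labelled treatment. Counts were fitted once over the 3 groups in edgeR 4.0.16 (R 4.3.3), with filterByExpr defaults, TMM scaling and the two-sided quasi-likelihood F-test in its robust form, with Benjamini-Hochberg adjustment. The fit was tested on simulated data. CPM is the count over the TMM-scaled library size, per kb over the union exon length of GENCODE mouse annotation on GRCm38, which matched 54723 of 54752 IDs. SE is the log2 change over the root of F, and intervals are 95%. Ratios to Alb are descriptions. Alternatives were other scalings and filters, left-out libraries, a replicate block, thinned counts, DESeq2 1.42.0 and limma-voom 3.58.1. Precision is limited by 6 libraries per group, and for Afp also by depth.

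The genes named beside the carriers were the 2 of each list with the smallest p in Cirrhosis against Control and in Cirrhosis-PTH against Cirrhosis, the 3 genes of most similar pattern and the annotated neighbours. The carriers, the lists and the alternatives were chosen with earlier results of these data known. Promoter sequence is RefSeq's on GRCm38.p6. No pairing of the libraries by replicate number was seen. Some genes and 1 motif that these rules name are not reported here.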

Additional observations from a re-analysis of the deposited data

Results flagged for a closer look

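Control replicate 7 stood apart from the other Control libraries in Serpina7. It had 24.7 CPM, while the next highest Control library had 11.9 CPM and the median of the other 5 was 8.68 CPM. As a share of the Alb count it had 0.0807%, against 0.0339% in the next and a median of 0.0279% in the others. A gap of this kind relative to the group's range exceeded Dixon's 95% critical value in 2 of 45 group and measure combinations tested, both of them Serpina7 in this library, and chance alone marks about 1 in 20. The value lies below all 6 Cirrhosis libraries, and without this library Serpina7 kept its calls in Cirrhosis against Control and in Cirrhosis-PTH against Cirrhosis.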

How the results depend on the processing

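Over 15 alternative settings and 18 left-out libraries, 757 of 792 values of the 8 carriers kept their direction and their side of the threshold. Serpina6 and Serpina7 kept both in Cirrhosis against Control and in Cirrhosis-PTH against Cirrhosis under every setting. All 19 reversals of a carrier came from 2 settings without a scaling factor, in which the median of all genes also shifts. With library totals alone, Cirrhosis against Control gave 0.25 for Alb, 0.33 for Gc, 0.066 for Ttr and 0.023 for Rbp4, and also 0.28 for Cyp26a1, 0.053 for Zbtb20 and 0.044 for Fcgrt. Cirrhosis-PTH against Cirrhosis gave -0.16 for Alb, -0.21 for Afp and -0.024 for Gc, and Cirrhosis-PTH against Control gave 0.089 for Alb, 0.30 for Gc, 0.18 for Ttr, 0.26 for Rbp4 and 0.014 for Serpina6. Carriers called numbered 4 instead of 7 in the first comparison and 2 instead of 6 in the second, and genes called in the third numbered 6382 instead of 1932. The 4 are not part of the 7, since Gc was called in the opposite direction and Afp was newly called. Over the 15 settings, 9526 to 14050 genes were called in the first comparison, beside 11073 in the main fit. In the second they numbered 8131 to 9795, beside 8464. With totals outside the ribosomal loci and no factor, chosen after seeing the data, Cirrhosis against Control gave 0.042 for Alb, 0.10 for Gc and 0.081 for Cyp26a1, Cirrhosis-PTH against Cirrhosis gave -0.11 for Alb and -0.14 for Afp, and Cirrhosis-PTH against Control gave 0.14 for Gc, 0.025 for Ttr and 0.085 for Rbp4. Carriers called numbered 4, with Afp newly among them, and 3 in the first 2 comparisons, and genes called in the third 4021. By construction these settings leave the shift of the typical gene in each change. No left-out library changed the call of a carrier: Alb in Cirrhosis against Control ran from -0.56 to -0.36 over them, Serpina6 from -2.27 to -1.90 and Serpina7 from 2.82 to 3.35. Alb lost its call in Cirrhosis against Control in a fit of only those 12 libraries (-0.41).

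Same-numbered libraries of different groups did not deviate together (correlations from -0.17 to 0.16), so no pairing by number was seen. A pairing that touches only some genes could be missed by these correlations. With the replicate block, 9526 genes were called in Cirrhosis against Control, 8219 in Cirrhosis-PTH against Cirrhosis and 1354 in Cirrhosis-PTH against Control, and 7, 6 and 1 carriers, as without it. Libraries of a group differed by at least 34 times the sampling noise (chi-square per degree of freedom), so none is a copy of another. Depth limits Afp most, with as few as 47 counts in a library.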
